A study of Mus musculus with 22 samples.

Results

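A set of 8 genes of the inflammatory repertoire of brain macrophages was followed in hypothalamic nuclei and cells after a single intracerebroventricular (icv) injection of FGF1: the CC chemokines Ccl2, Ccl12, Ccl3 and Ccl4, the CXC chemokine Cxcl10, the cytokines Il1b and Tnf, and the lysozyme gene Lyz2. They were chosen by name, as 8 of the 16304 genes of the whole-cell table. All 8 had UMIs there, and 7 of them, all but Tnf, were among the 20668 genes of the nuclei table. Chemokines are small secreted proteins that draw leukocytes along a gradient. Ccl2 and Ccl12 act through the receptor Ccr2 on monocytes, Ccl3 and Ccl4 are the macrophage inflammatory proteins, and Cxcl10 is an interferon-inducible ligand of Cxcr3 on T cells. Interleukin-1β and TNF are the early cytokines of microglia, the resident macrophages of brain tissue, and act on astrocytes, tanycytes, ependymal and vascular cells as well. Lyz2 encodes the lysozyme of macrophages and neutrophils, and its promoter is a common driver of myeloid Cre lines.

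All animals were male ob/ob mice, which lack leptin and are obese and diabetic, of 11 weeks of age by the labels. Those used for nuclei were B6.Cg-Lepob/J mice from Jackson Labs, and those used for whole cells were B6.V-Lepob/JRj mice from Janvier Labs. FGF1 mice received 3 µg of FGF1 icv, and vehicle mice received PBS and were pair-fed to them, so that food intake was matched. Single-nucleus libraries were made from frozen hypothalamic punches of 3 FGF1 and 3 vehicle mice killed 24 h after injection (Day 1) and of 2 FGF1 and 2 vehicle mice killed 5 days after it (Day 5). Whole-cell libraries came from a separate cohort, on a different chow, of 6 FGF1 and 6 vehicle mice at Day 5. That tissue was dissociated with enzymes at a warm temperature, and the authors removed neurons from the table, so the whole-cell values describe glia, ependymal lineages and vascular cells.

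The tables held 24965 nuclei and 54890 whole cells, with 2721087 to 16345981 UMIs per nuclei library and 2652897 to 11866269 per whole-cell library. Barcode sequences found in more than 1 library made up 1.29% of the nuclei barcodes and 3.38% of the whole-cell barcodes, and cells were kept apart by library. The 20 whole-cell clusters of the authors were named from marker genes: microglia (cluster 8, 1870 cells, all 7 markers met), macrophages (cluster 16, 329 cells, 5 markers), tanycytes (clusters 0, 7 and 10), astrocytes, oligodendrocytes, their progenitors (OPC) and committed precursors (COP), ependymal cells, vascular and leptomeningeal cells (VLMC) and pericytes. Each such name stands for a "-like" cluster. Clusters 3 and 17 to 20 met the markers of more than 1 type and keep their numbers; cluster 3 (4113 cells) carried both pericyte and endothelial markers. Of the nuclei types used below, as named by the authors, microglia met 5 of 7 markers, VLMC all 6, astrocytes all 7 and tanycytes 6 of 7. The authors removed genes found in few barcodes. Nuclei libraries still held 334 to 2254 genes seen in fewer than 5 nuclei, 0 to 351 of them in a single nucleus, so such genes were not all set to 0, but a library listed at 0 may have held a few nuclei or cells with the gene.

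In the mouse genome (GRCm38), the CC chemokine genes lie in 2 pairs on chromosome 11. Ccl2 spans 82035571 to 82037453 and Ccl12 spans 82101845 to 82103400, both on the plus strand and 64391 bases apart. Ccl3 (83647844 to 83649355, minus strand) and Ccl4 (83662584 to 83664683, plus strand) are 13228 bases apart, 1544443 bases beyond Ccl12. Il1b lies on chromosome 2 (129364570 to 129371139), Cxcl10 on chromosome 5 (92346638 to 92348889), Lyz2 on chromosome 10 (117277331 to 117282321) and Tnf on chromosome 17 (35199381 to 35202007), each on the minus strand. Gm17268 overlaps Ccl2, Art3 overlaps Cxcl10 and Il1bos overlaps Il1b, in each case on the opposite strand, so the values of these 3 genes are uncertain as far as counting ignored strand. Of the 403 windows of 98 bases in the last 500 transcript bases of Lyz2, 7 (1.74%) are identical in its paralog Lyz1, which was not analysed here.

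The promoters of 3 members are shown because they differ in the motifs found near the start of the gene. The letters are the 250 bases before the RefSeq start (GRCm38.p6), written 5′ to 3′ on the strand of the gene; 6 of the 8 members, not Ccl2 and Ccl4, had a sequence. Capitals mark TATAAA and matches to the NF-κB consensus. The windows are Cxcl10 at chr5:92348890-92349139, minus strand, Ccl12 at chr11:82101595-82101844, plus strand and Lyz2 at chr10:117282273-117282522, minus strand. The RefSeq start of Lyz2 lies inside the gene span given above, which ends at 117282321, so part of its window lies within that span.
Cxcl10: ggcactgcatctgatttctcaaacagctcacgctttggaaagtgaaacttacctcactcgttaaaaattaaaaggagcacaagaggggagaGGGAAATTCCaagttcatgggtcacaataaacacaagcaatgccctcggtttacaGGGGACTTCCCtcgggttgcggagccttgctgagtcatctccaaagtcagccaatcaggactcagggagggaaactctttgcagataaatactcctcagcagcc
Ccl12: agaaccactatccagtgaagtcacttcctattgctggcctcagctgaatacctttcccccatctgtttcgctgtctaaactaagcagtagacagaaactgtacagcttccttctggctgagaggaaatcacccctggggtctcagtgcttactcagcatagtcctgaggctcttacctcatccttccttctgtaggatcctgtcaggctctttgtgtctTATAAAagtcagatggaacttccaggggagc
Lyz2: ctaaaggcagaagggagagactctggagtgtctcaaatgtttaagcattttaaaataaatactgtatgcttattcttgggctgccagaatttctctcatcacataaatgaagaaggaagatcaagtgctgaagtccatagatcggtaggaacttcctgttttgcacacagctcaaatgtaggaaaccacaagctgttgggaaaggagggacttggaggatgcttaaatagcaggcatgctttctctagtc

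Among the 6 promoters, NF-κB matches were found only in that of Cxcl10: a single one began 159 bases before the start, and 3 overlapping ones, on both strands, began 103 or 104 bases before it. Such a match was present in 7.25% of 32851 mouse promoters of the same length. TATAAA lay 31 bases before the start of Ccl12 and of Il1b and 29 bases before that of Tnf, against 7.59% of all promoters. GAGGAA, the PU box read by a transcription factor of myeloid cells, was present in the promoters of Ccl3, Ccl12 and Tnf on either strand, against 23.3% of all promoters, and is left in lower case. None of the 3 motifs was in the Lyz2 window. The NF-κB consensus and GAGGAA were searched on both strands and TATAAA on the strand of the gene only. A match is a match of letters, not a shown binding site.

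Microglia and macrophages carried most of the message of these genes in the whole-cell samples, except for Cxcl10, and the 8 genes did not share one pattern. All whole-cell libraries came from warm enzymatic dissociation, and its part in these levels was not tested. Levels are given as CPM, the UMIs of a gene scaled to the total UMIs of the cell type, which for 3′ counts do not scale with transcript length. Microglia held 90.2% of all Tnf UMIs, 87.7% of Ccl4, 83.6% of Ccl3, 72.2% of Il1b and 65.8% of Ccl12. For the other 3 genes the microglial part was below 50%: 43.7% for Ccl2, 27.8% for Lyz2 and 26.3% for Cxcl10. Macrophages held 31.1% of Ccl2 and 2.07% of Cxcl10 UMIs. Tanycyte clusters 10, 0 and 7 held 19.0%, 8.74% and 4.89% of the Cxcl10 UMIs.

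**Figure D1:**
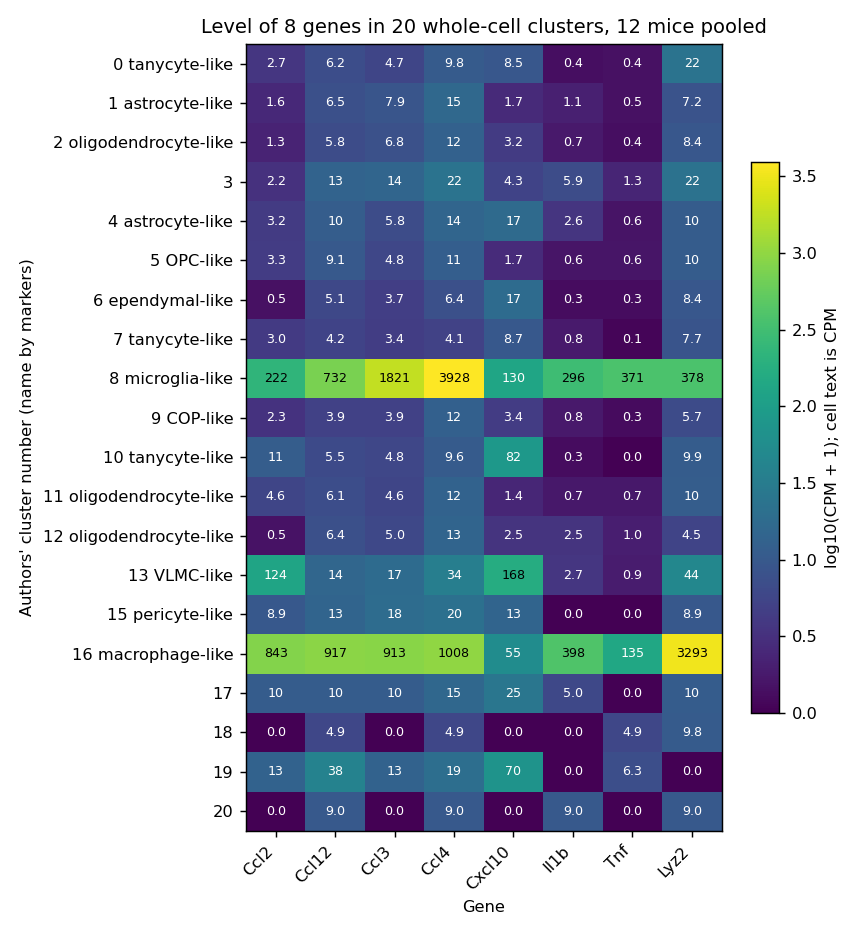
Levels of the 8 genes in the 20 whole-cell clusters, with all 12 mice pooled. Colour is log10(CPM + 1), rows are clusters with their "-like" names and columns are genes. Microglia and macrophages are the brightest rows for the CC chemokines, Il1b and Tnf, while Cxcl10 is also bright in VLMC (168 CPM) and in tanycyte cluster 10 (82.1 CPM).

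Among the CC chemokines, Ccl2 was listed highest in macrophages (843 CPM), then microglia (222 CPM) and VLMC (124 CPM). Ccl12 was at 917 CPM in macrophages and 732 CPM in microglia, with no other numbered cluster above 38.0 CPM (cluster 19, 95 cells). Ccl3 was at 1821 CPM in microglia and 913 CPM in macrophages, and Ccl4 at 3928 and 1008 CPM, so that both had the reverse order of Ccl2. These pooled levels come from the same 12 libraries and carry no test between clusters. By the mean of mice, Ccl12 did not keep its order. Its log2(CPM + 1) was 9.43 in FGF1 and 8.98 in vehicle macrophages, against 9.81 and 9.06 in microglia.

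Cxcl10 had the broadest spread: 168 CPM in VLMC, 130.5 CPM in microglia, 82.1 CPM in tanycyte cluster 10, 69.7 CPM in cluster 19 and 54.9 CPM in macrophages. These levels are pooled too. As a mean of mice, its log2(CPM + 1) was 5.17 in FGF1 and 5.92 in vehicle VLMC, against 7.00 and 4.10 in microglia. Il1b was at 398 CPM in macrophages and 296 CPM in microglia, and Tnf at 135 and 371 CPM. No other cluster reached 10 CPM of either cytokine. Lyz2 was a macrophage gene above all, at 3293 CPM there, 378 CPM in microglia, 44.4 CPM in VLMC and 22.2 CPM in tanycyte cluster 0; macrophages, 329 of 54890 cells, held 45.3% of its UMIs.

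The genes whose levels across the 20 clusters were most like a member were mostly genes of phagocytes. The likeness is Pearson's r of log2(CPM + 1) across clusters of the same libraries, over 11554 genes, and is a description. Ccl4 was closest to the complement gene C1qc (r = 0.99) and the growth factor receptor gene Csf1r (r = 0.98), and Ccl3 to C1qc (r = 0.97). Ccl12 was closest to Fcer1g (r = 0.96), Tnf to Osm (r = 0.95), which encodes oncostatin M, Il1b to Hmha1 (r = 0.96), Lyz2 to Cybb (r = 0.94), which encodes a subunit of the phagocyte oxidase, and Ccl2 to Irf8 (r = 0.89). Cxcl10 was closest to Lpl (r = 0.88) and C3 (r = 0.84), and its r with the other members ran from 0.79 for Ccl2 and 0.65 for Ccl3 down to 0.38 for Lyz2 and 0.37 for Il1b.

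The first comparison was FGF1 against vehicle in whole cells at Day 5, within each type. Of 24 tests of a member in 7 types, 3 passed an FDR of 0.05 over all genes tested in that type (edgeR quasi-likelihood test). All 3 were Lyz2, in tanycytes, in cluster 3 and in astrocytes, each higher in FGF1 mice. Of all genes tested, 5.08% were called in tanycytes, 0.948% in cluster 3, 12.6% in astrocytes and 2.25% in oligodendrocytes. The share was 0.262% in microglia and 0.0% in macrophages and VLMC. With such shares, the count of calls is not a result about the members as a group. The chemokines and cytokines passed in no type in this fit.

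In tanycytes, the glia that line the floor of the third ventricle, Lyz2 rose 5.14-fold. The 6 FGF1 mice had a lowest level of 19.0 CPM, a median of 21.9 and a highest of 31.2, and the vehicle mice had 1.52, 4.58 and 5.32 CPM. The groups did not overlap, and the FGF1 mouse was higher in 6 of 6 batches, each of which held 1 mouse of either group. The log2 difference was 2.36 ± 0.215 (SE, n = 6 and 6, edgeR FDR 5.5e-07), and 5.08% of the 10494 genes tested in tanycytes were called. An exact permutation test of the mice, 2-sided, gave p = 0.0022, the smallest it can give (1 of 65 such tests, not adjusted). The counts behind the difference are small, 364 Lyz2 UMIs in all FGF1 tanycytes and 35 in all vehicle tanycytes. With vehicle levels this low, Lyz2 passed the filter on low counts through the FGF1 mice, and the call is read with that limit. It was also called with no filter (2.39 ± 0.223, edgeR FDR 5.6e-08). The difference was known from earlier results of these data, so its size is described here and is not independent evidence.

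Within tanycytes the difference was read mainly from cluster 0, where Lyz2 was at 34.4 ± 9.70 CPM in FGF1 and 4.40 ± 2.30 CPM in vehicle mice (SD, n = 6). That cluster alone gave a log2 difference of 2.91 ± 0.280 (edgeR FDR 1.8e-07). Cluster 10 was at 14.0 ± 9.88 against 2.28 ± 2.86 CPM and cluster 7 at 6.80 ± 4.55 against 4.43 ± 5.42 CPM. Differences between the 3 clusters were not tested.

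A UMI of Lyz2 was seen in 221 of 9204 FGF1 tanycytes (2.40%) and in 27 of 5200 vehicle tanycytes (0.519%), and 74.7% and 81.5% of these cells held a single one. With each cell thinned to 800 UMIs, 1.49 ± 0.219% of FGF1 and 0.343 ± 0.173% of vehicle tanycytes had one (exact permutation p = 0.0022, not adjusted; median depth before thinning 1465 UMIs). Oligodendrocytes, which should lack the gene, had 1.06 ± 0.594% and 0.474 ± 0.262% by the same count (median depth 1372.5 UMIs). In either group the tanycyte share lay within 1 SD of the oligodendrocyte share, and the difference between the types was not tested on this scale.

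Markers of phagocytes were measured in the same tanycytes. The 7 microglia markers summed to 53.5 to 115 CPM in FGF1 and 53.2 to 84.1 CPM in vehicle mice, and the 3 C1q genes to 130 ± 43.8 and 95.0 ± 31.8 CPM. The 7 macrophage markers summed to 2.98 ± 2.25 and 3.97 ± 1.59 CPM, with Cd163, Lyve1, F13a1 and Cbr2 at 0 in all FGF1 tanycytes. A microglia marker was present in 22.2% of the Lyz2-positive tanycytes of either group, against 10.3% of the other FGF1 and 8.91% of the other vehicle tanycytes, and a macrophage marker in 4.52% and 7.41%, against 0.468% and 0.522%. The part of phagocyte RNA in the tanycyte value was not tested.

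**Figure D2:**
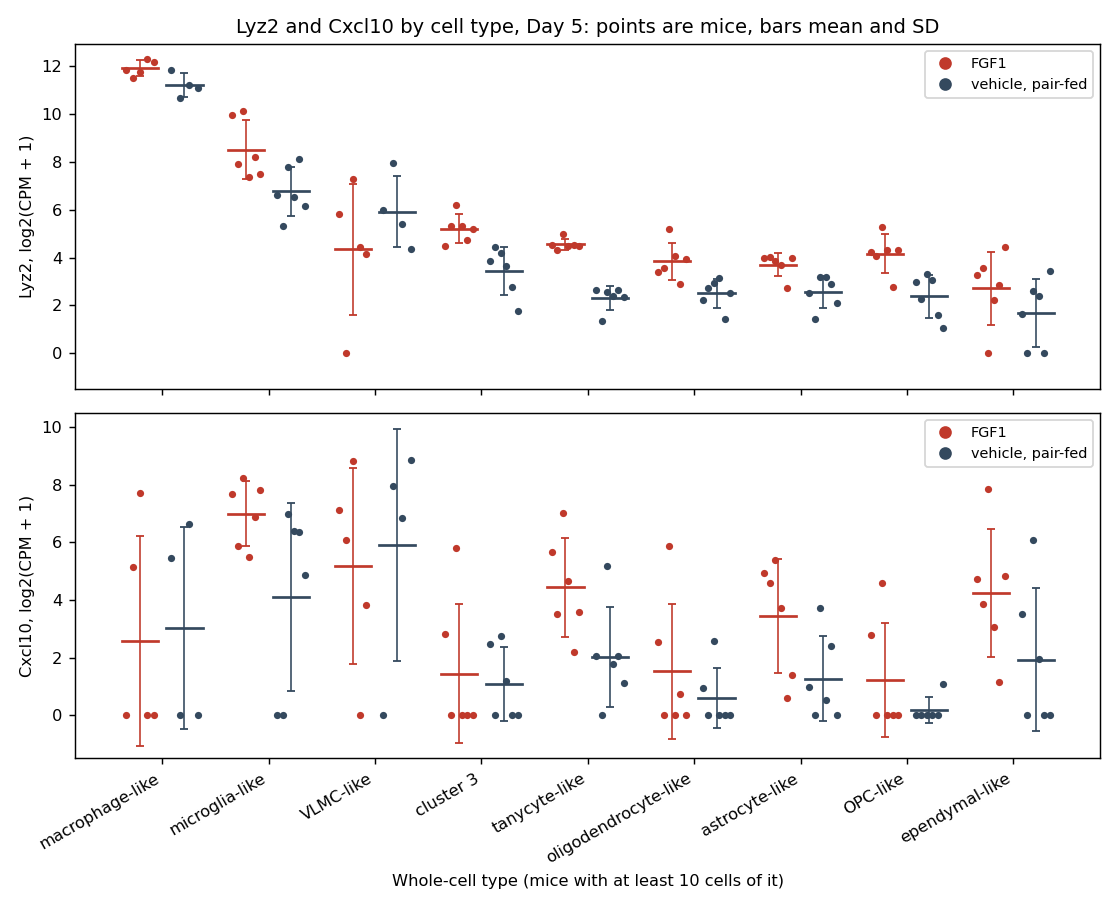
Lyz2 and Cxcl10 by cell type in whole cells at Day 5, as log2(CPM + 1); each point is a mouse, red for FGF1 and dark for vehicle, with the mean and SD of each group beside the points. In tanycytes the lowest FGF1 mouse has 19.0 CPM of Lyz2 and the highest vehicle mouse 5.32 CPM, whereas the Cxcl10 points of the groups overlap.

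In cluster 3, Lyz2 rose as well, by 1.70 ± 0.349 on the log2 scale (edgeR FDR 0.0160; 0.948% of genes called there). The FGF1 mice had 21.3, 37.5 and 73.1 CPM (lowest, median, highest) and the vehicle mice 2.38, 12.6 and 21.0 CPM, without overlap. The FDR was 0.0502 without vehicle replicate 20, and without FGF1 replicate 10 or 36 the gene fell under the filter on low counts and was not tested. Leaving out any vehicle mouse kept the gene in the test. It thus passed the filter through FGF1 mice, and the call is read with that limit. The summed microglia markers of this cluster were at 130 ± 51.5 CPM in FGF1 and 108 ± 36.9 CPM in vehicle mice, and the C1q genes at 201 ± 108 and 137 ± 46.0 CPM. Their part in the cluster 3 value was not tested.

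In astrocytes Lyz2 rose by 0.91 ± 0.306 (edgeR FDR 0.0466; 12.6% of genes called). The FGF1 mice had 5.59, 14.2 and 15.3 CPM and the vehicle mice 1.74, 5.62 and 8.24 CPM, overlapping because of FGF1 replicate 10, the lowest of its group. The call was lost in 9 of 16 alternatives, with an FDR of 0.0506 in DESeq2 and of up to 0.115 when a mouse was left out, and without FGF1 replicate 36 the gene fell under the filter on low counts. Microglia markers summed to 79.8 ± 19.3 CPM in FGF1 and 94.9 ± 10.6 CPM in vehicle astrocytes, and the C1q genes to 171 ± 86.6 and 137 ± 51.9 CPM.

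Lyz2 in oligodendrocytes and OPC fell under the filter on low counts. Oligodendrocytes had 6.44, 12.5 and 35.3 CPM in FGF1 and 1.71, 5.18 and 7.87 CPM in vehicle mice, with the FGF1 mouse higher in 6 of 6 batches (exact permutation p = 0.0065, 1 of 65 such tests, not adjusted). OPC had 19.2 ± 10.5 and 5.00 ± 3.15 CPM, again higher in 6 of 6 batches. With the authors' batch as a block, 9633 rather than 8438 genes passed the filter in oligodendrocytes, Lyz2 among them. Lyz2 was called in that fit (log2 1.61 ± 0.321, edgeR FDR 0.00386, with 3.79% of genes called). The filter and the model changed together here. With no filter and no block, Lyz2 was called in oligodendrocytes (1.29 ± 0.341, edgeR FDR 0.0402) and in OPC (1.94 ± 0.449, edgeR FDR 0.00429). Lyz2 in oligodendrocytes was also called without FGF1 replicate 10 (edgeR FDR 0.0327). In the same oligodendrocytes the C1q genes summed to 193 ± 119 CPM in FGF1 and 109 ± 33.4 CPM in vehicle mice, and the microglia markers to 78.9 ± 39.0 and 65.2 ± 16.4 CPM. A C1q gene was seen in 42.6% of the Lyz2-positive FGF1 oligodendrocytes, against 17.1% of the others, and in 46.0% against 11.7% in vehicle mice. The part of phagocyte RNA in the oligodendrocyte and astrocyte values was not tested.

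Whether the tanycyte difference exceeded that of other types was tested per mouse, as Lyz2 in tanycytes minus Lyz2 in the other type on the log2(CPM + 1) scale, over 10 other types (exact permutation test). By this exact test the FGF1 minus vehicle difference was 1.09 larger in tanycytes than in astrocytes (p = 0.0022, adjusted p = 0.0216) and 1.36 larger than in macrophages (5 and 4 mice, p = 0.0079, adjusted p = 0.0397). It was not shown to differ from that in microglia (0.49, adjusted p = 0.523), cluster 3 (0.47, adjusted p = 0.552), OPC (0.45, adjusted p = 0.523) or oligodendrocytes (0.91, adjusted p = 0.189). The microglia value changed sign to -0.10 with a pseudocount of 5. The same comparison with VLMC gave 3.60 (adjusted p = 0.106).

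Cxcl10 in tanycytes was scattered. The FGF1 mice had 3.52, 17.7 and 129 CPM (lowest, median, highest) and the vehicle mice 0, 2.75 and 35.7 CPM. The groups overlapped, and 1 mouse in each, FGF1 replicate 6 and vehicle replicate 22, stood above the rest; both belong to the same batch. The log2 difference of 2.47 ± 1.16 did not pass (edgeR FDR 0.257), nor when a mouse was left out, with values from 2.02 without FGF1 replicate 7 to 3.69 without vehicle replicate 22. Cluster 0 fitted alone passed without a block (2.28 ± 0.516, edgeR FDR 0.0126), and no other tanycyte cluster was called alone. Differences between the clusters were not tested. Over all tanycytes the FGF1 mouse was higher in 6 of 6 batches. With the batch as a block the difference over all tanycytes passed (2.58 ± 0.375, edgeR FDR 0.00228, with 5.99% of genes called in that fit). Over all cells, the deviations of paired mice correlated at 0.40 in the batch of FGF1 replicate 6. In the other batches they correlated at -0.13 to 0.05. The batch was thus not shown to pair the mice, and this pass is not read as stronger evidence.

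With the batch as a block, Ccl12 was also called in tanycytes (4.08, 7.16 and 19.2 CPM in FGF1 against 1.52, 2.13 and 8.12 CPM in vehicle mice, log2 1.40 ± 0.361, edgeR FDR 0.0243). So was Cxcl10 in ependymal cells (1.98 ± 0.428, edgeR FDR 0.0013, with 2.32% of genes called). Without the block and with all mice neither passed the filter on low counts, so the filter and the model changed together. With no filter and no block, Ccl12 in tanycytes was called (1.44 ± 0.406, edgeR FDR 0.0418) and Cxcl10 in ependymal cells was not. Ccl12 in tanycytes was also called without FGF1 replicate 21 (edgeR FDR 0.0425). Ependymal Cxcl10 was at 1.23, 19.6 and 230 CPM in FGF1 and 0, 1.44 and 66.6 CPM in vehicle mice, and both groups were headed by the mice of 1 batch, FGF1 replicate 6, with 5 UMIs in 19 cells, and vehicle replicate 22. Ccl4 in tanycytes was close in both groups (log2 -0.26 ± 0.285, FDR 0.667). In oligodendrocytes, where 2.25% of genes were called, Ccl4 differed by 0.59 ± 0.281 (FDR 0.260).

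In microglia, 7 of 2676 genes were called (0.262%), all lower in FGF1 mice, and none of the 8 members was among them, in edgeR or in DESeq2. All 8 fitted differences were above 0, with a median of 0.69 on the log2 scale against -0.01 over all genes tested. The members come from the same mice and were not tested as a set, so this is a description. Every member overlapped between the groups.

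Among the CC chemokines in microglia, Ccl2 and Ccl12 had larger fitted differences than Ccl3 and Ccl4, and this contrast between genes was not tested. Ccl2 was at 146, 234 and 419 CPM in FGF1 and 112, 154 and 231 CPM in vehicle microglia (lowest, median, highest), a log2 difference of 0.74 ± 0.240 (edgeR FDR 0.178). Ccl12, its neighbour on the chromosome, was at 627, 950 and 1114 against 295, 542 and 824 CPM (0.64 ± 0.218, FDR 0.199). Both were higher in the FGF1 mouse in 5 of 6 batches.

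Ccl3 was at 1037, 1708 and 3830 CPM in FGF1 and 1467, 1791 and 2079 CPM in vehicle microglia (0.16 ± 0.240, edgeR FDR 0.843). Ccl4, the most abundant member, was at 2672, 3861 and 6407 against 2667, 3484 and 5123 CPM (0.21 ± 0.224, FDR 0.766). For both, the medians of the groups lay well inside the range of the other group, and the FGF1 range was the wider.

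Cxcl10 was at 43.7, 160 and 302 CPM in FGF1 and 0, 55.0 and 125 CPM in vehicle microglia (1.46 ± 0.559, edgeR FDR 0.288). It was higher in the FGF1 mouse in 5 of 6 batches, and the lower part of the FGF1 range overlapped the vehicle range.

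Of the cytokines, Il1b was at 277, 410 and 730 CPM in FGF1 and 0, 101 and 432 CPM in vehicle microglia (1.37 ± 0.493, edgeR FDR 0.256). The overlap came from a single vehicle mouse, and without vehicle replicate 22 the difference was 1.92 ± 0.365 with an edgeR FDR of 0.0173. It did not pass without any other single mouse, with differences down to 1.21 and an FDR of up to 0.570, the latter without vehicle replicate 25. Tnf was at 204, 398 and 585 against 323, 403 and 427 CPM (0.01 ± 0.228, FDR 0.988), so its medians were nearly the same and its FGF1 mice were the more scattered. The 2 cytokines thus had unlike values in the same microglia, and their difference from each other was not tested.

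Lyz2 in microglia was at 164, 270 and 1117 CPM in FGF1 and 39.4, 94.4 and 282 CPM in vehicle mice (1.82 ± 0.641, edgeR FDR 0.252), higher in the FGF1 mouse in 6 of 6 batches. The macrophage markers of this cluster summed to 31.4 ± 30.9 CPM in FGF1 and 18.4 ± 22.5 CPM in vehicle mice, and the C1q genes to 11828 ± 2465 and 8331 ± 2563 CPM. Among Lyz2-positive microglia of FGF1 mice 9.56% held a macrophage marker, against 0.623% of the other FGF1 microglia. The part of macrophages within the microglia cluster was not tested.

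**Figure D3:**
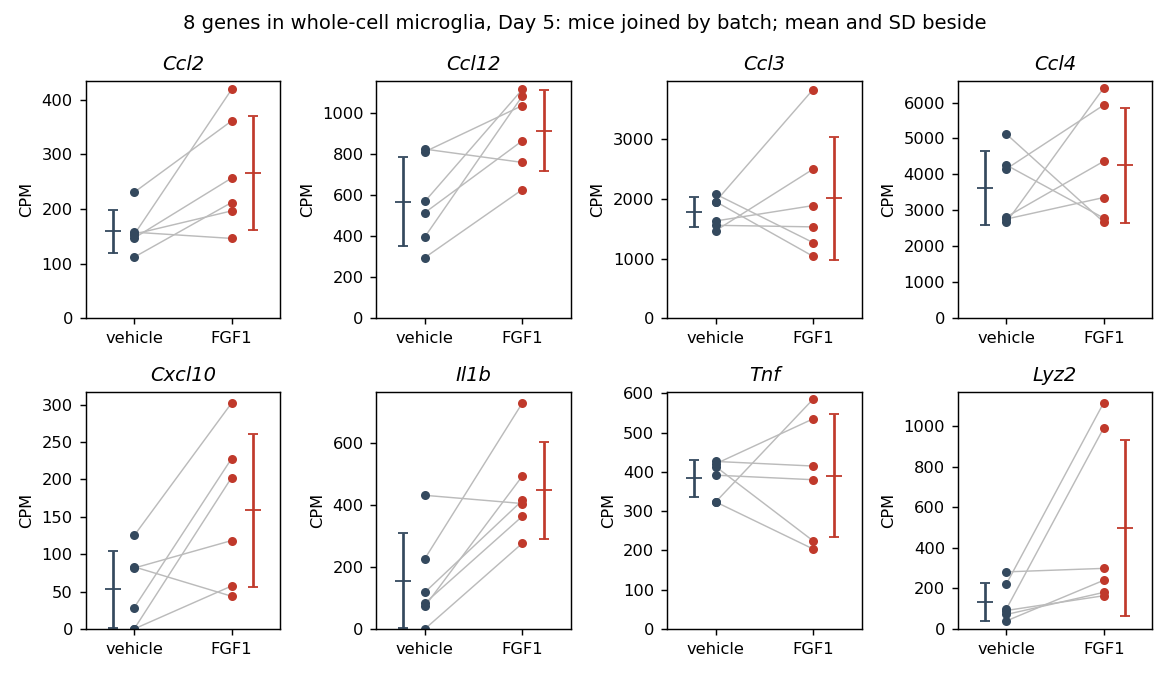
CPM of the 8 genes in microglia of the 12 whole-cell mice at Day 5, 1 panel per gene; lines join the FGF1 and the vehicle mouse of a batch, and the mean with its SD stands beside each group. Lyz2 lines rise towards FGF1 in 6 of 6 batches and Il1b, Ccl2, Ccl12 and Cxcl10 lines in 5 of 6, while Ccl3 lines do so in 3 and Tnf lines in 2.

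Counted per cell, Il1b, Ccl12 and Lyz2 had an unadjusted p below 0.05. With microglia thinned to 800 UMIs (1849 of 1870 cells, 907 from FGF1 and 942 from vehicle mice), Il1b was seen in 21.5 ± 4.48% of FGF1 and 8.02 ± 6.14% of vehicle microglia (exact permutation p = 0.0065; the 8 shares were tested and p-values are not adjusted). Ccl12 was seen in 34.7 ± 6.65% and 25.6 ± 6.79% (exact p = 0.0476) and Lyz2 in 19.3 ± 7.98% and 9.36 ± 5.45% (exact p = 0.0390). Unthinned, the Il1b shares were 30.3% and 11.4%, those of Ccl12 47.6% and 33.2%, and those of Lyz2 28.2% and 15.0%.

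The other 5 shares had an unadjusted p above 0.05. Ccl4 was seen in 61.4% of FGF1 and 58.2% of vehicle microglia, Ccl3 in 52.3% and 50.2%, Tnf in 19.9% and 19.0%, Ccl2 in 11.2% and 9.12%, and Cxcl10 in 6.32% and 2.86%. In oligodendrocytes thinned alike (median depth 1372.5 UMIs against 1263.5 in microglia before thinning) no member was seen in more than 1.40% of FGF1 or 0.721% of vehicle cells, Ccl4 being the highest.

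Within single microglia the members were combined in many ways. Of the 1849 thinned cells, 318 (17.2%) had a UMI of no member, 400 of 1, 482 of 2, 365 of 3 and 191 of 4. Ccl3 and Ccl4 were seen together in 732 cells, which is 79.7% of the Ccl3 cells and 66.4% of the Ccl4 cells. If the genes were independent, 548 such cells would be found. Ccl12 and Il1b shared 118 cells (22.2% of the Ccl12 cells, 46.1% of the Il1b cells), against 73.5 if independent. Cxcl10 and Il1b shared 26 (26.5% and 10.2%), against 13.6. These counts describe sparse data from 12 mice and carry no test.

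Across the 12 mice, with group means subtracted, the 28 pairs of members in microglia had correlations of log2(CPM + 1) from -0.38 to 0.87 with a median of 0.39, and 24 were positive. Ccl3 and Ccl4 went together most closely (Pearson's r = 0.87, Spearman's rho = 0.95, permutation test, adjusted p = 0.00028 over the 28 pairs), and the relation held without the 2 mice farthest from the median (r = 0.94). Ccl12 with Il1b (r = 0.79, rho = 0.66, permutation adjusted p = 0.00546) and Cxcl10 with Il1b (r = 0.72, rho = 0.66, permutation adjusted p = 0.0161) also passed by Pearson's r, though not by Spearman's rho (permutation adjusted p = 0.171 for both). Without the 2 mice farthest from the median, Ccl12 with Il1b had r = 0.62 (permutation adjusted p = 0.244) and no longer passed. Cxcl10 with Il1b had r = 0.76 in the 10 mice left, no lower than before, and did not pass either (permutation adjusted p = 0.144). The points of a pair share a library and its depth.

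In macrophages none of the 782 genes tested was called (0.0%), and DESeq2 called no member either, from 5 FGF1 and 4 vehicle mice with at least 10 of these cells. Lyz2 was at 3663, 2952, 3478, 5108 and 4708 CPM in FGF1 replicates 7, 28, 6, 10 and 36, and at 3732, 1619, 2351 and 2210 CPM in vehicle replicates 22, 20, 35 and 25. Vehicle replicate 22 overlapped the FGF1 mice, and the log2 difference of 0.66 ± 0.235 had an unadjusted p of 0.0130 and an FDR of 0.984 (edgeR). Il1b differed by 1.05 ± 0.655, Ccl4 by 0.31 ± 0.369 and Ccl12 by 0.09 ± 0.735, and Ccl2 and Ccl3 were lower in FGF1 mice by the fit, at -0.92 ± 0.685 and -0.67 ± 0.475. The last 2 had values of 0.08 and 0.14 without vehicle replicate 35. Ccl12 had no stable direction, at 1.27 without vehicle replicate 35, which had 2040 CPM against 221 to 427 CPM in the other vehicle mice, and at -0.43 without FGF1 replicate 36. In VLMC, where none of 877 genes was called (0.0%), Ccl2 ranged from 33.3 to 264 CPM in FGF1 and from 0 to 457 CPM in vehicle mice (log2 0.19 ± 0.737).

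Summed over all cells of a mouse, no member passed in edgeR, although 9.58% of 13723 genes were called. The fitted differences were 1.84 ± 0.869 for Cxcl10 (edgeR FDR 0.205), 1.68 ± 0.623 for Lyz2 (FDR 0.110) and 1.65 ± 0.677 for Il1b (FDR 0.147), and lay between 0.08 and 0.76 for the others. In such sums a larger share of a cell type and more RNA per cell cannot be told apart. Microglia made up 1.65 to 12.0% of the cells of FGF1 mice and 1.92 to 5.51% of those of vehicle mice (exact permutation p = 0.684), and the highest share was that of FGF1 replicate 6. Without that mouse the values were smaller for all 8 members: 1.03 ± 0.806 for Cxcl10, 0.83 ± 0.427 for Lyz2, 0.80 ± 0.473 for Il1b, 0.23 ± 0.307 for Ccl12 and 0.0027 ± 0.323 for Ccl4. Those of Ccl2 (-0.15 ± 0.444), Ccl3 (-0.16 ± 0.284) and Tnf (-0.23 ± 0.288) changed sign. DESeq2 called Lyz2 alone in these sums, at an FDR of 0.0491.

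The wider pathway was described with lists of other chemokines, chemokine receptors, interleukin-1 and TNF pathway genes, NF-κB feedback genes, interferon-response genes, immediate early genes and phagocyte lysosome genes. In microglia and macrophages none of these lists had a called gene, where 0.262% and 0.0% of all genes were called. The lists were not tested as sets, so the counts of genes above 0 are descriptions. Of 10 interleukin-1 and TNF pathway genes tested in microglia 9 had a difference above 0, with a median of 0.70 on the log2 scale against -0.01 over all genes. Il1a, the sister cytokine of Il1b, was at 1.00 ± 0.290 (edgeR FDR 0.125), the inflammasome adaptor gene Pycard at 0.73 ± 0.235 and the endotoxin co-receptor gene Cd14 at 0.99 ± 0.343. All 4 other chemokines tested were above 0 (median 0.81), among them Ccl9 at 1.12 ± 0.281 (FDR 0.0798), as were all 7 interferon-response genes (median 1.32; Ifitm3 2.07 ± 0.852, FDR 0.349).

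The remaining lists had smaller medians in microglia. Of 13 NF-κB feedback genes 10 were above 0 (median 0.23), of 3 chemokine receptors 2 (median 0.19), of 19 phagocyte lysosome genes 17 (median 0.28), of 15 homeostatic microglia markers 10 (median 0.17), of 19 immediate early genes 8 (median -0.06) and of 2 border macrophage markers 1 (median -0.05). No monocyte, neutrophil or lymphocyte marker passed the filter on low counts in microglia, where Plac8 was at 19.7 CPM, Ly6c2 at 11.1 CPM and Ccr2, the receptor of Ccl2 and Ccl12, at 5.44 CPM. In macrophages Ccr2 was at 77.6 CPM and Plac8 at 192 CPM, neither of them tested. The macrophage medians ran from -0.87 for 4 other chemokines to 0.70 for 3 interferon-response genes.

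In tanycytes the calls in these lists were few, at 1 of 6 other chemokines, 1 of 12 interleukin-1 and TNF pathway genes and 2 of 17 phagocyte lysosome genes. With 5.08% of all genes called, such counts are not a result about the lists. The chemokine gene Cxcl14 fell by 1.25 on the log2 scale (SE 0.211, edgeR FDR 0.00139), and the TNF receptor gene Tnfrsf1a (0.53 ± 0.150, FDR 0.0401) and the lysosomal genes Cd63 (0.44 ± 0.123, FDR 0.0354) and Ctsz (0.40 ± 0.117, FDR 0.0442) rose. None of 11 NF-κB feedback genes, 19 interferon-response genes, 19 immediate early genes or 2 chemokine receptors was called there, nor were 6 homeostatic microglia markers and 1 border macrophage marker.

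In astrocytes several genes of the signalling lists fell. Of 9 NF-κB feedback genes tested 4 fell: the inhibitor gene Nfkbia at -1.05 ± 0.179 (edgeR FDR 0.000286), Zfp36, which destabilises cytokine messages, at -0.80 ± 0.184, Nfkbiz at -0.90 ± 0.248 and Sod2 at -0.66 ± 0.169. Of 15 immediate early genes 8 fell, led by Dusp1 (-1.88 ± 0.243, FDR 0.000134), and Irak1 and Il18 fell too. Of 17 phagocyte lysosome genes 5 rose, among them Lamp1 (1.05 ± 0.114, FDR 3.3e-07) and Ctsb (0.52 ± 0.103), and of 15 interferon-response genes Ifit2 rose (0.81 ± 0.216). Set against this, 12.6% of all genes tested were called in astrocytes. The part of the warm dissociation in these values was not tested.

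The second comparison was FGF1 against vehicle in nuclei at Day 1. Message of these genes was rare in nuclei, with 224 Ccl2, 188 Ccl12, 133 Lyz2, 17 Cxcl10, 4 Ccl3, 4 Ccl4 and 3 Il1b UMIs in all 10 libraries. A single member in 1 of 18 types passed the filter on low counts. Levels in nuclei and whole cells are not compared, since preparation, cohort, mouse strain and supplier, the counting of introns and possibly chow cannot be told apart.

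Ccl2 was seen in every FGF1 library at Day 1 and listed at 0 in every other nuclei library. FGF1 replicates 1, 2 and 3 held 121, 14 and 89 Ccl2 UMIs in 57, 13 and 37 nuclei, whereas vehicle replicates 1, 2 and 3 and all 4 Day 5 libraries held none. The UMIs were spread over types: 47, 0 and 38 were in VLMC, 24, 3 and 14 in astrocytes, 7, 2 and 6 in tanycytes, 9, 0 and 6 in oligodendrocytes, 1, 0 and 16 in ependymal nuclei and 4, 0 and 0 in microglia. Another 16, 7 and 3 were in nuclei labelled unmapped, which are neurons not matched to a known population, at 2.68, 1.79 and 1.88 CPM. In bulk of all nuclei the difference did not pass (edgeR FDR 0.227; 0.274% of 16053 genes called), and it passed in DESeq2 (FDR 0.00133), which is not read as support since every UMI came from FGF1 mice.

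VLMC nuclei held the most Ccl2 UMIs of any type, and all of them came from 2 FGF1 mice. FGF1 replicate 1 had 1661 CPM, from 47 UMIs in 2 of 12 nuclei with 28 in a single nucleus, and FGF1 replicate 3 had 577 CPM, from 38 UMIs in 5 of 28 nuclei. FGF1 replicate 2 had 6 such nuclei with no Ccl2 UMI and was left out of the fit for having fewer than 10, and the 3 vehicle mice, with 19, 15 and 12 nuclei, were listed at 0. The values thus rest on 2 mice and 7 nuclei. The gene passed the filter on low counts only through these 2 mice, so a difference was bound to be found, and its edgeR FDR of 1.2e-10 (2.26% of 1061 genes called) is not read as support. No fold is given against libraries listed at 0.

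**Figure D4:**
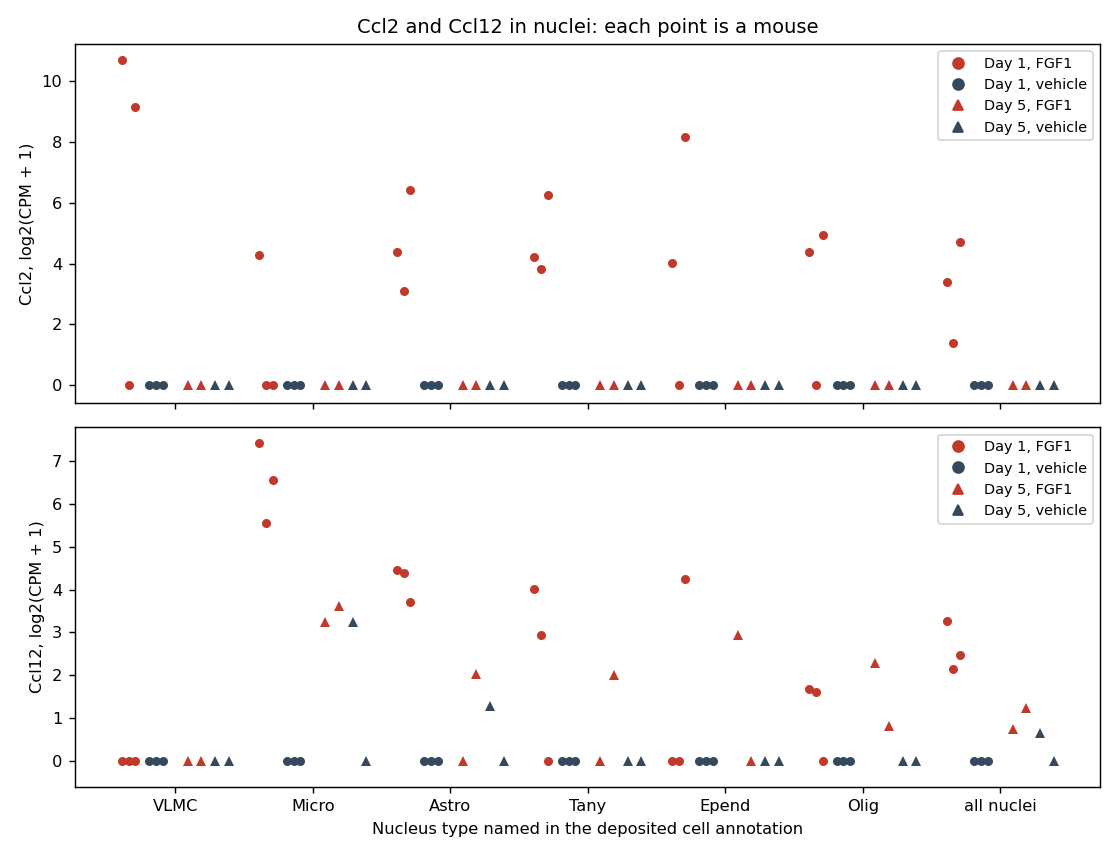
Ccl2 and Ccl12 in nuclei by cell type, as log2(CPM + 1); circles are Day 1 and triangles Day 5 mice, red for FGF1 and dark for vehicle. At Day 1 the FGF1 circles of Ccl2 reach 1661 CPM in VLMC and those of Ccl12 reach 169 CPM in microglia, while every vehicle circle lies at 0.

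Ccl12 was also seen in every FGF1 library at Day 1, with microglia holding more of it than any other type. FGF1 replicates 1, 2 and 3 held 108, 30 and 16 Ccl12 UMIs in 78, 19 and 12 nuclei, and the vehicle mice of Day 1 were listed at 0. In microglia the FGF1 mice had 37, 11 and 9 UMIs in 16 of 73, 6 of 51 and 6 of 23 nuclei, or 169, 45.9 and 92.9 CPM, and in astrocytes 25, 8 and 2 UMIs. Unmapped nuclei held 20, 5 and 1 (3.35, 1.28 and 0.628 CPM). None was in VLMC nuclei. Over all nuclei the FDR was 0.0684 in edgeR and 3.8e-06 in DESeq2, and it was 0.0851 with zeros set to 4 counts. Over all nuclei, too, Ccl2 and Ccl12 passed the filter only through the FGF1 mice, so these values are no support either.

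For Ccl2 in astrocytes, tanycytes and unmapped nuclei and Ccl12 in astrocytes, microglia and unmapped nuclei, no FGF1 mouse of Day 1 overlapped a vehicle mouse. An exact permutation test of 3 against 3 mice gave p = 0.1 for each, the smallest it can give, among 12 such tests. These pairs of gene and type had the UMIs required for a test through FGF1 mice only, so the order of the groups was fixed by that choice and the test gives no support. No gene was called in microglia nuclei at Day 1 (0.0% of 4053), and no gene of the lists above was called in them at either day.

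Lyz2 in all nuclei of Day 1 was at 8, 3 and 56 UMIs in FGF1 and 9, 16 and 4 UMIs in vehicle mice, and FGF1 replicate 3 stood apart (edgeR FDR 0.748). Tanycyte nuclei held no Lyz2 UMI in any of the 6 mice.

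The third comparison was FGF1 against vehicle in nuclei at Day 5, with 2 mice a group. No member passed the filter on low counts in any of 11 types. Ccl12 over all nuclei was at 6 and 22 UMIs in FGF1 replicates 37 and 45 (0.675 and 1.35 CPM) and at 6 and 0 in vehicle replicates 28 and 38 (0.573 and 0 CPM). These levels did not overlap, and an exact permutation test of 2 against 2 mice gave p = 0.333, the smallest it can give. In microglia, where 0.121% of 4974 genes were called, Ccl12 was at 2 and 5 UMIs against 2 and 0 (8.47 and 11.2 against 8.50 and 0 CPM), so that the groups overlapped. Lyz2 over all nuclei was at 6 and 22 UMIs in FGF1 and at 6 and 3 in vehicle mice (log2 0.63 ± 0.668, edgeR FDR 0.756, with 0.0% of 16929 genes called). Tanycyte nuclei held no Lyz2 UMI in any Day 5 mouse. They numbered 34 and 107 in FGF1 replicates 37 and 45, and 9 and 14 in vehicle replicates 28 and 38. All 17 Cxcl10 UMIs of the nuclei lay in FGF1 replicate 45, with 6 in tanycytes, 5 in astrocytes and 2 in ependymal nuclei, and none was in FGF1 replicate 37 or a vehicle mouse. All Ccl3 and Ccl4 UMIs lay in the same library, and all 3 Il1b UMIs in vehicle replicate 38.

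Whether the effect in nuclei differed between the days was tested with an interaction term. For Ccl12 the term rests on the Day 1 values, where every vehicle mouse was listed at 0, and is read neither as support for a change nor against it. For Ccl12 in microglia nuclei it had an unadjusted p of 0.0116 and an FDR of 0.999 over 5941 genes (edgeR), and for Ccl12 over all nuclei an FDR of 0.710. For Lyz2 over all nuclei the effect at Day 5 minus that at Day 1 was -1.07 ± 2.12 (FDR 0.977). A change of effect between the days was not shown, and the term for Ccl2 could not be estimated because all Day 5 libraries were listed at 0.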

How the data were processed

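The authors made libraries with 10x Genomics 3′ chemistry and counted UMIs with Cell Ranger 1.2 on GRCm38, introns included for nuclei, then clustered with Seurat. They removed predicted doublets from whole cells only, and none were removed here. The deposited counts are raw whole-number UMI counts per gene and barcode, with a sample, batch and cluster or cell type for each barcode. The authors removed genes found in fewer than 5 nuclei or 10 cells; in every library some genes below these limits remain (334 to 2254 in nuclei, 620 to 1925 in cells). The authors also deposited, for each whole cell, the percent of its UMIs from mitochondrial and from ribosomal genes, and 4382 cells above the 20% they name as a ceiling were kept. The deposited log-normalized tables were not used.

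Counts were summed per mouse and type (at least 10 barcodes) and tested with edgeR 4.0.16 in R 4.3.3 (filterByExpr, TMM, robust quasi-likelihood test), with Benjamini-Hochberg FDR over all genes tested in a type and 0.05 as the threshold. Standard errors are the log2 difference divided by the root of F. Single values were tested with 2-sided exact permutation tests (scipy 1.17.1) of log2(CPM + 1), for members with at least 10 UMIs in a type. The fits were tested on simulated data. Alternatives were DESeq2 1.42.0, RLE scaling, no filter, the authors' batch or the replicate number as a block, other pseudocounts and leaving out each mouse, some of them (all-cell sums, all nuclei, zeros set to 4 counts) added after seeing the data. The batch pairs 1 FGF1 with 1 vehicle mouse, and correlations of paired deviations ran from -0.13 to 0.40 in whole cells. Named genes are the 8 members and, for each list and type, called genes (at most 4 a direction) or else the 3 most abundant. The members, lists and tests were chosen with earlier results of these data known. Ccl2 in VLMC nuclei was singled out after its values were seen, and its test supports nothing. Total UMIs per library, given with the results, limit the precision, and shares of cells carry counting error beside that of mice.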

Additional observations from a re-analysis of the deposited data

Results flagged for a closer look

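Of 48 groups of 4 to 6 mice, 9 had a mouse far from the others by Dixon's ratio of gap to range. Chance alone gives about 1 in 20 groups where values are independent and normally distributed. The values here are CPM of several genes and types from the same libraries, so the 9 flagged groups are not compared with that rate. Of these, 5 were FGF1 replicate 6, in each case the highest of its group: Cxcl10 in tanycytes (129 CPM against 3.52 to 49.95 in the others, ratio 0.631), Lyz2 in tanycytes (31.2 against 19.0 to 22.3 in the others, ratio 0.729), Ccl4 in tanycytes (19.2 against 5.16 to 10.3, ratio 0.633), Lyz2 in cluster 3 (73.1 against 21.3 to 39.5, ratio 0.648) and Ccl4 in oligodendrocytes (35.3 against 11.0 to 19.1, ratio 0.667). This mouse also had the highest share of microglia, and the part of that share was not tested. Vehicle replicate 22 was high for Cxcl10 in tanycytes (35.7 against 0 to 3.19, ratio 0.911). Vehicle replicate 35 was high for Ccl12 in macrophages (2040 against 221 to 427, ratio 0.887). The low mice were vehicle replicate 27 for Lyz2 in tanycytes (1.52 against 4.11 to 5.32, ratio 0.682) and FGF1 replicate 10 for Lyz2 in astrocytes (5.59 against 12.1 to 15.3, ratio 0.675).

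Among differences between types, the FGF1 minus vehicle difference of Lyz2 on the log2(CPM + 1) scale was 1.09 larger in tanycytes than in astrocytes and 1.36 larger than in macrophages, by the exact permutation tests given above.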

How the results depend on the processing

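The 3 calls in whole cells became 6 without the filter on low counts, 7 with the authors' batch as a block and 1 to 4 when a mouse was left out, with 1 without FGF1 replicate 36 and 4 without vehicle replicate 22. The block also let more genes through the filter, 11567 rather than 10494 in tanycytes. Of its added calls, Lyz2 in oligodendrocytes, Cxcl10 in ependymal cells and Ccl12 in tanycytes fell under the filter in the unblocked fit of all mice. Cxcl10 in tanycytes was tested there and did not pass. Lyz2 in oligodendrocytes and Ccl12 in tanycytes were also called with neither filter nor block, as was Lyz2 in OPC. Lyz2 in tanycytes passed in all 19 alternatives run, with a log2 difference of 2.27 to 2.46 when a mouse was left out. The 1 call in nuclei at Day 1, Ccl2 in VLMC, is not read as support, since the filter passed the gene only through FGF1 mice; the number became 7 without the filter and 2 with a replicate block, which added Ccl12 in microglia. The replicate numbers did not pair the nuclei mice (correlations of deviations -0.19, -0.16 and 0.40), so the block says nothing of a weaker or stronger effect. The whole-cell batch pairs had correlations from -0.13 to 0.40 over all cells and from -0.13 to 0.23 in microglia. Calls gained with that block are likewise not read as a stronger effect. With the batch as a block, Lyz2, Ccl2, Il1b and Ccl12 in microglia had edgeR FDRs of 0.0784 to 0.0995. Leaving out vehicle replicate 35 brought Ccl2 in microglia to 0.94 ± 0.251 (edgeR FDR 0.0459), whereas it did not pass without any other single mouse (0.56 without FGF1 replicate 6, and an FDR of up to 0.513 without vehicle replicate 25). In sums over all cells, Ccl2 and Ccl3 changed sign without FGF1 replicate 6, as given above, and Tnf did so there and without FGF1 replicate 36 or vehicle replicate 22 or 29. The other values that changed sign were not called under any setting: in microglia Ccl3 (-0.090 without FGF1 replicate 10 to 0.32 without FGF1 replicate 6) and Tnf (-0.063 without cells above the stated limit, and -0.13 to 0.18 when a mouse was left out), in macrophages Ccl2 (-1.40 to 0.081), Ccl3 (-0.96 to 0.14) and Ccl12 (-0.43 to 1.27 when a mouse was left out, -0.031 with the batch as a block), the difference of Lyz2 between tanycytes and microglia (-0.10 with a pseudocount of 5) and the share of microglia with Ccl3 (-0.92 percentage points at 500 UMIs). At 500 UMIs the Il1b share differed by 11.0 percentage points (exact permutation p = 0.0022). The 3 pairs of members became 1 without the 2 mice farthest from the median and 8 without subtracting group means. The cause of these changes was not tested, apart from the smaller or larger set of genes or mice that each alternative makes. In nuclei most members had too few UMIs to be tested.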
